A study of Danio rerio with 6 samples.

Results

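Mitosis genes are described here across uncut and amputated fin folds of zebrafish larvae. The set held 42 gene names with known roles in mitotic entry, chromosome condensation, chromosome attachment, the spindle, anaphase and cytokinesis. They were chosen with earlier results of these data known. Of these names, 41 were found in the gene column of the deposited table, and they matched 42 of its 32266 rows because ube2c stood there as a pair of rows. All 42 rows passed the filter on low counts. The name incenp, which stands for the scaffold of the chromosomal passenger complex, matched no row.

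RNA sequencing measured transcript levels in larval fin folds, the thin skin folds around the tail, of 3-day-old zebrafish. A group of 3 libraries came from folds 4 h after amputation, and another group of 3 came from uncut folds. Both groups carried the word DMSO, a solvent, in their sample descriptions, and no drug, strain, transgene or mutant allele was named. The labels do not say how many larvae went into a library or whether replicates are separate sets of animals, and p-values thus reflect the spread among these libraries, which may be technical.

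Mitosis is driven by cyclin-dependent kinase 1 bound to A- and B-type cyclins. Cells replicate their DNA in S phase, pass through G2, and only then condense, attach and separate their chromosomes, ending with the pinching of the cell in cytokinesis. Many mitosis transcripts build up late in the cycle and decline afterwards, and in growing or regenerating tissue they are widely used as a sign of dividing cells.

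Levels, written CPM, are counts brought to one library size by trimmed-mean (TMM) scaling, in the order replicate 1, 2, 3. Fold changes are log2 of amputated over uncut from edgeR's quasi-likelihood test, with a standard error (SE), and p-values were adjusted over all 17883 genes tested by the Benjamini-Hochberg method. A gene was called at an adjusted p under 0.05. Without gene lengths, levels are compared between groups and not between genes. A bulk library cannot tell fewer cells of a type apart from less RNA per cell.

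Total counts were 18595152 to 21128093 in amputated libraries and 11216130 to 23019556 in uncut libraries. The groups separated along the first principal component (66% of variance). On the second (14.1%), uncut replicate 1 lay apart at 37.6, and uncut replicate 3 lay on the other side at −25.1. The marker genes of the fold were present, with summed levels of actinodin and other fin mesenchyme markers at 30501 to 35359 CPM in amputated folds and 71277 to 73606 CPM in uncut folds. Of those markers, 11 of 13 tested were lower in amputated folds, as were 8 of 11 superficial epidermis and 6 of 10 basal epidermis markers. Neutrophil markers summed to 88.8 to 143 CPM in amputated folds and 16.3 to 27.1 CPM in uncut folds, and 8 of 8 tested were higher. Macrophage markers were higher in 8 of 9 and erythrocyte markers in 0 of 6, and no marker list was at 0. Skeletal muscle markers summed to 1000 to 1096 CPM in amputated folds and 1230 to 1613 CPM in uncut folds, and 7 of 10 tested were lower. Of 10 pan-leukocyte markers tested 7 were higher and 1 lower, and of 7 neural markers 2 were lower. Over all tested genes, 20.8% were higher and 19.6% lower. The part of such markers in the mitosis values was not tested.

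Most mitosis genes did not pass the test at 4 h. In amputated folds, 4 of the 42 rows were higher, 0 were lower and 38 were not called. That is 9.52% called, against 40.4% of all genes tested (20.8% higher and 19.6% lower). At an unadjusted p under 0.05 the edgeR test counted 5 rows, against 48.5% of all genes. DESeq2 called 3 rows higher and 0 lower, against 16.5% of all genes higher and 16.7% lower. The authors' deposited table called 4 higher and 0 lower, against 19.6% higher and 19.0% lower over all genes. The called genes were bub3, spc24, smc2 and ncaph, which belong to the spindle checkpoint, the kinetochore and condensin. In the table's coordinates, whose genome build the sources used here do not give, bub3 (ENSDARG00000075883) lies on chromosome 12 at 49193302 to 49197913 and spc24 (ENSDARG00000093622) on chromosome 3 at 19206129 to 19214241. The condensin genes smc2 (ENSDARG00000017744) and ncaph (ENSDARG00000061468) lie on chromosome 1 at 18842183 to 18868864 and on chromosome 5 at 27659502 to 27670792. The median log2 fold change over the 42 rows was 0.04, with a range of −0.28 to 0.64, beside a median of 0.003 over all tested genes. A log2 fold change under 0.3 in size was found in 36 rows.

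The counts behind these rows ran from 10 to 2992 per library. The 95% interval of the log2 fold change reached from 0.169 (mki67) to 0.607 (ccnb2) on either side of the estimate, with a median of 0.250. For 33 of the 38 rows not called with TMM, this interval lay within 0.5 of no change. On the TMM scale, changes larger than that are therefore outside the intervals of those 33 rows. With library totals the median log2 fold change of the mitosis rows was 0.29, and intervals on that scale were not counted. With TMM, log2 fold changes under 0.5 in size could still be called, as for smc2 (0.45) and ncaph (0.34).

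The scaling of the libraries decides much of this count. With library totals alone in place of TMM, the median of all genes was 0.26 and that of the mitosis rows 0.29, so the mitosis rows exceeded all genes by 0.03 under both scalings. On that scale 20 of the 42 rows were higher and 0 lower, against 38.1% higher and 9.15% lower over all genes. Beside the 4 rows called with TMM, these included mki67, plk1, aurkb, ccna2, ccnb2, anln, kif23 and racgap1. The genes cdk1, ccnb1 and top2a were not called on either scale. Over all genes, 3724 were higher and 3499 lower with TMM, and 6821 were higher and 1636 lower with library totals. All but ect2 had a log2 fold change above 0 with library totals, against 26 of 42 rows with TMM.

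**Figure D1:**
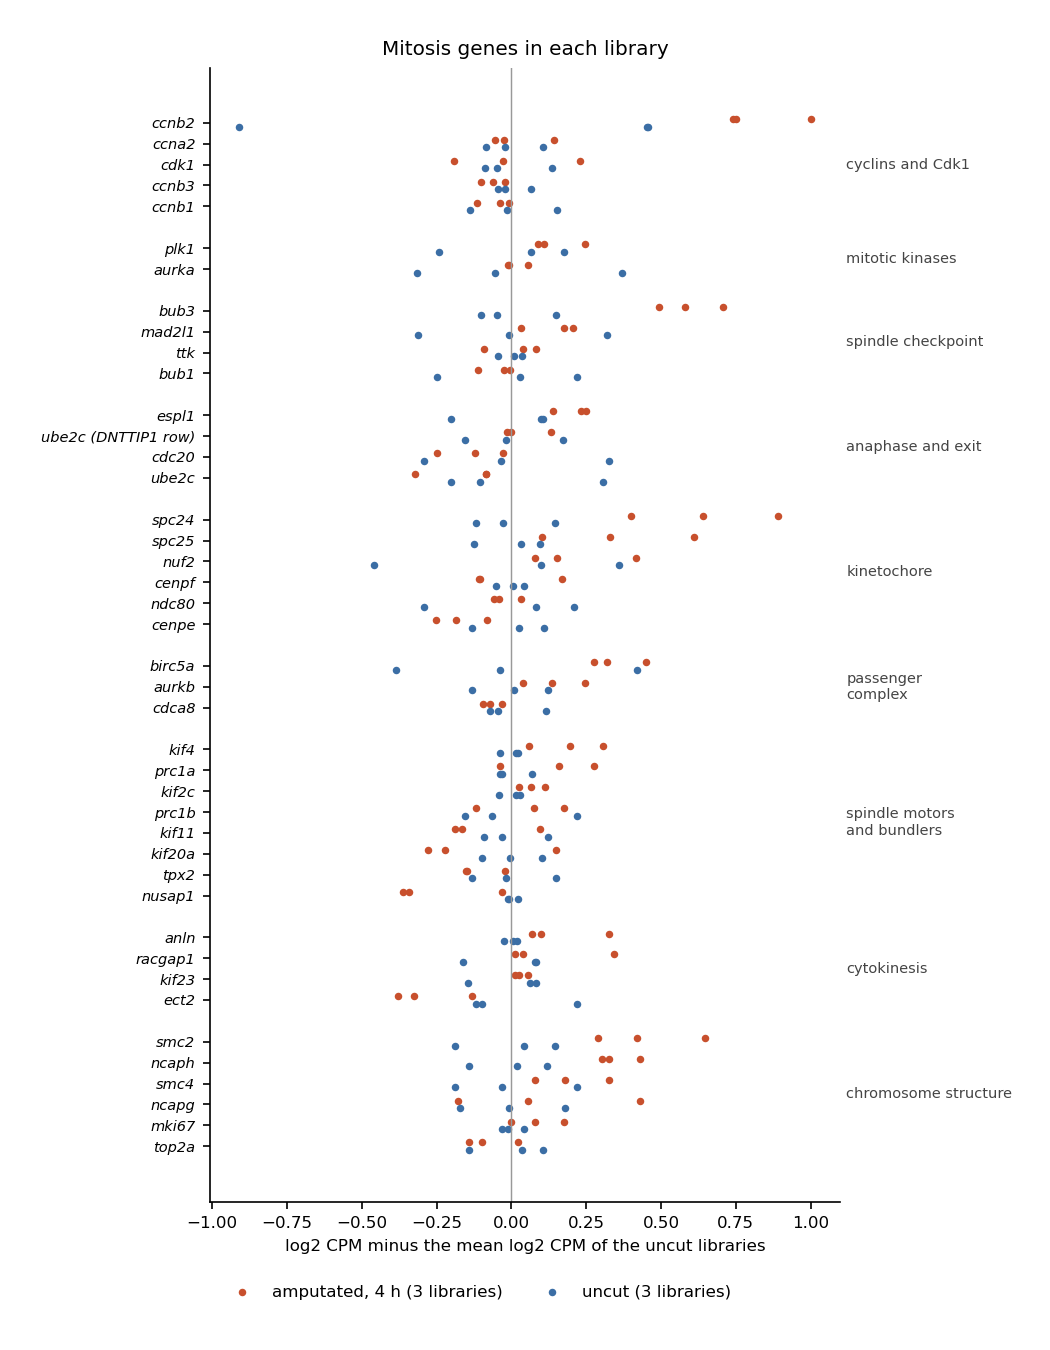
Each point is one library's log2 CPM of a mitosis gene minus the mean log2 CPM of the 3 uncut libraries, by role, with amputated libraries in orange above uncut libraries in blue. Points of both groups interleave for most genes, while all amputated points of bub3, spc24, smc2 and ncaph lie to the right. Scaling by library totals would move the amputated points to the right by about 0.26.

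Cyclins and Cdk1, which form the kinase that starts mitosis, gave 0 calls among 5 genes with TMM, against 40.4% of all genes tested. With so few genes per role, such counts say little. The transcript of cdk1, the kinase itself, had 17.5, 19.6 and 23.5 CPM in amputated folds, against 22.0, 18.8 and 19.4 CPM in uncut folds. Its lowest and its highest library were both amputated, and the log2 fold change was 0.01 ± 0.12 (SE, edgeR adjusted p = 0.951). Cyclin B1 (ccnb1), its main partner at mitotic entry, had 21.5, 19.95 and 21.1 CPM in amputated folds and 23.98, 21.4 and 19.6 CPM in uncut folds. All 3 amputated values of ccnb1 lay inside the uncut range, with a log2 fold change of −0.06 ± 0.10 (SE, edgeR adjusted p = 0.674) that was above 0 with library totals. The B-type cyclin ccnb3 and cyclin A2 (ccna2), which acts in S phase and G2, had log2 fold changes of −0.06 and 0.02. The ccna2 row shares 9839 bases with tmem33, which was higher at 0.60, and the strand of the reads was not recorded.

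Cyclin B2 (ccnb2), the other widely expressed B-type cyclin, had few reads. It was at 3.66, 3.08 and 3.05 CPM in amputated folds, against 2.50, 2.51 and 0.972 CPM in uncut folds. The groups did not overlap, and the lowest value rested on 10 counts in uncut replicate 3. The log2 fold change of 0.63 ± 0.28 (SE) was not called by edgeR (adjusted p = 0.0913), but was called with the replicate number as a block (adjusted p = 0.0388). Under that block 5 mitosis rows were higher and 0 lower, against 23.1% higher and 22.5% lower over all genes. Without uncut replicate 3 the ccnb2 value was 0.37 (edgeR adjusted p = 0.236).

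The mitotic kinase genes plk1 and aurka gave 0 calls with TMM, against 40.4% of all genes tested. Polo-like kinase 1 (plk1), which acts from mitotic entry to cytokinesis, had 31.6, 31.2 and 34.8 CPM in amputated folds, against 33.1, 30.7 and 24.8 CPM in uncut folds. Only uncut replicate 3 stood below the others for plk1, and the log2 fold change was 0.13 ± 0.11 (SE, edgeR adjusted p = 0.366). With library totals plk1 was called higher, at 0.39 (edgeR adjusted p = 0.0116). Aurora kinase A (aurka), which works at spindle poles, had amputated values of 7.33 to 7.68 CPM inside the uncut range of 5.93 to 9.55 CPM.

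Of the spindle checkpoint genes, which hold anaphase until every chromosome is attached, bub3 rose and bub1, mad2l1 and ttk were not called. The bub3 protein carries the checkpoint kinase Bub1 to kinetochores. Its transcript had 24.6, 26.1 and 28.4 CPM in amputated folds, against 16.9, 19.4 and 16.2 CPM in uncut folds. Every amputated library was above every uncut one, and the level was 1.499-fold higher (log2 fold change 0.58 ± 0.11, SE, edgeR adjusted p = 0.000981). This call held with each library left out in turn and with library totals. The kinase genes ttk and bub1 had log2 fold changes of 0.01 and −0.05, and mad2l1, whose product binds Cdc20 while the checkpoint is on, had 0.10.

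Genes of anaphase and mitotic exit gave 0 calls among 4 rows with TMM, against 40.4% of all genes tested. The gene cdc20, activator of the anaphase-promoting complex, had 14.0, 12.8 and 14.96 CPM in amputated folds, against 19.1, 14.9 and 12.4 CPM in uncut folds, with uncut replicate 1 the highest. Separase (espl1), the protease that cuts cohesin, had 17.0 to 18.4 CPM in amputated folds and 13.4 to 16.6 CPM in uncut folds, without overlap, but its log2 fold change of 0.20 was not called (edgeR adjusted p = 0.183).

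The ubiquitin-conjugating enzyme gene ube2c needs care because of its pair of rows on chromosome 6, which lie 2248 bases apart. The row at 55278010 to 55287461, whose human gene is UBE2C, had 12.8, 10.9 and 12.8 CPM in amputated folds, against 16.8, 11.8 and 12.6 CPM in uncut folds (log2 fold change −0.17). The row at 55289710 to 55312364 names DNTTIP1 as its human gene, a part of a histone deacetylase complex and not the ubiquitin-conjugating enzyme. It had 29.3, 26.4 and 26.7 CPM in amputated folds, against 30.1, 26.4 and 24.02 CPM in uncut folds. Neither row was called with TMM, and leaving out the DNTTIP1 row changed no count of calls with TMM. With library totals the DNTTIP1 row was higher (edgeR adjusted p = 0.0331) and is among the 20 rows called on that scale.

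Kinetochore genes, whose products tie chromosomes to microtubules, gave 1 call among 6 (16.7%), against 40.4% of all genes tested. That call fell on spc24, which with ndc80, nuf2 and spc25 makes the rod-shaped Ndc80 complex that grips the microtubule. The spc24 row had 5.10, 7.16 and 6.02 CPM in amputated folds, against 3.56, 4.28 and 3.79 CPM in uncut folds, without overlap. Its level was 1.56-fold higher, with the largest log2 fold change of the 42 rows, at 0.64 ± 0.18 (SE, edgeR adjusted p = 0.0140). Amputated replicate 2 was the highest, and without it the edgeR adjusted p was 0.0675. Its direct binding partner spc25 had 5.74, 4.90 and 6.98 CPM in amputated folds, against 4.88, 4.19 and 4.67 CPM in uncut folds, a difference of 0.37 that was not called (edgeR adjusted p = 0.121).

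In the other pair of the Ndc80 complex, log2 fold changes were 0.16 for nuf2 and −0.03 for ndc80, with 95% intervals of −0.23 to 0.56 and −0.32 to 0.27. These intervals overlap that of spc24, and differences between the subunits were not tested. The nuf2 row lies wholly within that of isy1, a splicing factor gene that was higher at 0.71. In all, 12 member genes share bases with another gene row. The cenpe row shares 36019 bases with cul4a, which was not called (−0.03). The cdca8 row shares 10306 bases with ago4, not called at 0.19, and 278 with c19h1orf109, higher at 0.52. The nusap1 row shares 640 bases with ndufaf1, higher at 0.34. The motor gene cenpe, whose kinesin carries chromosomes to the spindle equator, had 49.6, 51.9 and 55.8 CPM in amputated folds, against 63.6, 60.0 and 53.9 CPM in uncut folds. The highest amputated value exceeded the lowest uncut one, and the log2 fold change of −0.18 ± 0.09 (SE, edgeR adjusted p = 0.134) was 0.08 with library totals. The large coiled-coil gene cenpf was at −0.01.

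The chromosomal passenger complex corrects wrong attachments and later guides cytokinesis. With TMM, 0 of its 3 genes tested were called, against 40.4% of all genes tested. The kinase gene of this complex, aurkb, had 17.2, 18.4 and 19.8 CPM in amputated folds, against 18.2, 16.8 and 15.3 CPM in uncut folds. The groups overlapped, at a log2 fold change of 0.13 ± 0.11 (SE, edgeR adjusted p = 0.359). With library totals aurkb was called higher, at 0.39 (edgeR adjusted p = 0.0124). Survivin (birc5a) had 5.84 to 6.59 CPM in amputated folds and 3.70 to 6.46 CPM in uncut folds, and borealin (cdca8) had a log2 fold change of −0.07. For incenp, a clone-named row whose human gene column reads INCENP had 35.4, 35.7 and 40.4 CPM in amputated folds, against 42.1, 38.1 and 32.5 CPM in uncut folds, with a log2 fold change of −0.02 (edgeR adjusted p = 0.902). Adding that row left the counts of calls with TMM as they were.

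Genes of spindle motors and microtubule bundlers gave 0 calls among 8 with TMM, against 40.4% of all genes tested. The spindle assembly factor tpx2, an activator of Aurora A, had 40.2, 40.1 and 44.0 CPM in amputated folds, against 49.4, 44.0 and 40.7 CPM in uncut folds. Only uncut replicate 1 stood well above the rest, and the log2 fold change was −0.11 ± 0.09 (SE, edgeR adjusted p = 0.364). The microtubule-binding gene nusap1 had 16.4, 16.6 and 20.6 CPM in amputated folds, against 20.9, 20.9 and 21.4 CPM in uncut folds. The groups just failed to overlap, and its log2 fold change of −0.23 ± 0.11 (SE, edgeR adjusted p = 0.120) was 0.02 with library totals. Without amputated replicate 3, the highest of its group, it was lower at −0.35 (edgeR adjusted p = 0.0330).

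Among the remaining spindle genes, log2 fold changes ran from −0.11 to 0.19. The low end was kif20a, a motor of the central spindle whose row shares 1140 bases with cdc23, itself higher at 0.59. Next came kif11, the motor that pushes spindle poles apart, at −0.08. The bundler pair prc1a and prc1b was at 0.13 and 0.04, and kif2c, a microtubule depolymerase, at 0.07. The chromokinesin gene kif4 was at the high end, with 19.95 to 23.7 CPM in amputated folds and 18.7 to 19.4 CPM in uncut folds, without overlap but not called (edgeR adjusted p = 0.162).

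Cytokinesis genes gave 0 calls among 4 with TMM, against 40.4% of all genes tested, and their fitted values stood on both sides of 0. Anillin (anln), a scaffold of the contractile ring, had 32.7, 33.4 and 39.2 CPM in amputated folds, against 30.7, 31.3 and 31.6 CPM in uncut folds. The groups did not overlap, yet the log2 fold change of 0.17 ± 0.09 (SE) was not called with TMM (edgeR adjusted p = 0.171). The cytokinesis regulator gene ect2 had 7.92, 8.22 and 9.42 CPM in amputated folds, against 11.99, 9.49 and 9.63 CPM in uncut folds. It had the lowest log2 fold change of the set, −0.28 ± 0.14 (SE, edgeR adjusted p = 0.134), and −0.02 with library totals. The centralspindlin pair kif23 and racgap1, which recruits Ect2 to the midzone, was at 0.02 and 0.13.

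Genes of chromosome structure held 2 of the 4 calls. That is 33.3% of their 6 members, against 40.4% of all genes tested. Both calls were in condensin, the ring complex that compacts mitotic chromosomes. Its core subunit gene smc2 had 40.8, 44.6 and 52.2 CPM in amputated folds, against 37.0, 34.4 and 29.3 CPM in uncut folds. All amputated libraries were above all uncut ones, with a 1.36-fold higher level (log2 fold change 0.45 ± 0.11, SE, edgeR adjusted p = 0.00749). The call held with each library left out in turn. The bridging subunit gene ncaph had 16.8, 16.5 and 18.1 CPM in amputated folds, against 13.6, 14.6 and 12.2 CPM in uncut folds.

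The ncaph groups did not overlap, at a 1.27-fold higher level (log2 fold change 0.34 ± 0.11, SE, edgeR adjusted p = 0.0281). That call was lost with DESeq2 (adjusted p = 0.0666) and in edgeR without any 1 of 4 libraries: amputated replicate 1 (adjusted p = 0.0653), 2 (0.0534) or 3 (0.0939), or uncut replicate 3 (0.0974). The partner of smc2 in the ring, smc4, had 51.5, 55.2 and 61.1 CPM in amputated folds, against 56.7, 42.8 and 47.6 CPM in uncut folds. Uncut replicate 1 stood inside the amputated range for smc4, and the gene was not called (log2 fold change 0.19, edgeR adjusted p = 0.187). Without that library, smc4 was higher at 0.32 (edgeR adjusted p = 0.0160) and birc5a at 0.52 (0.0342), so that 6 mitosis rows were higher and 0 lower, against 21.2% higher and 20.1% lower over all genes. The condensin subunit gene ncapg was at 0.12 and not called.

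The most used proliferation marker of the set, mki67, whose protein coats mitotic chromosomes, had 115.6, 122.1 and 130.5 CPM in amputated folds, against 118.9, 114.7 and 113.2 CPM in uncut folds. Uncut replicate 1 exceeded amputated replicate 1, and the log2 fold change was 0.09 ± 0.08 (SE, edgeR adjusted p = 0.408). With library totals mki67 was called higher, at 0.34 (edgeR adjusted p = 0.00358). Topoisomerase II alpha (top2a), which untangles sister chromatids, had 85.5, 83.0 and 92.9 CPM in amputated folds, against 98.5, 93.7 and 82.9 CPM in uncut folds. The ranges of top2a overlapped almost wholly, with a log2 fold change of −0.08 ± 0.09 (SE, edgeR adjusted p = 0.529) that was 0.18 with library totals. The genes ndc80, mki67 and top2a all lie on chromosome 12, and the rows of ndc80 and mki67 are 647 bases apart.

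**Figure D2:**
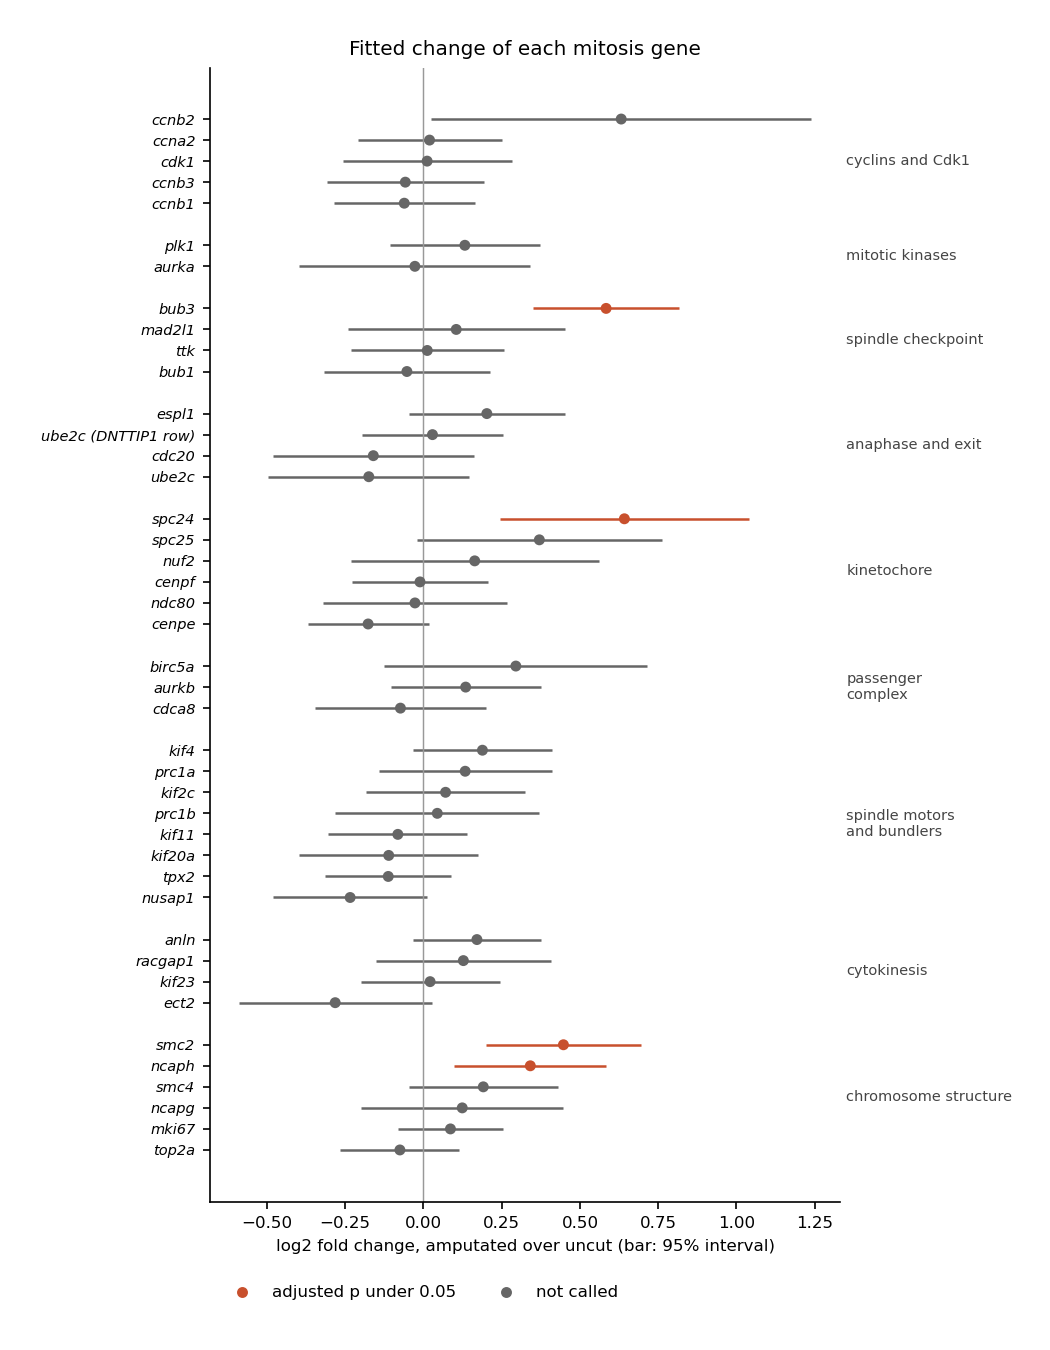
Log2 fold change, amputated over uncut, of the 42 mitosis rows by role, with bars for the 95% interval from edgeR and orange marking an adjusted p under 0.05. The 4 called genes lie at 0.34 to 0.64, and most other intervals cross 0. With library totals the points would sit about 0.26 further right.

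Without regard to the test, 11 of the 42 rows had groups that did not overlap. In 9 of them, spc24, ccnb2, bub3, smc2, spc25, ncaph, espl1, kif4 and anln, the amputated libraries were above, where 26.9% of all genes did so. In nusap1 and ect2 they were below, where 24.1% of all genes did so. The share above, 9 of 42, was only a little under that of all genes tested, and by itself says little about the members. The share below, 2 of 42, was further under that of all genes.

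Within a group, most mitosis rows lay on the same side of the group's mean in each library but uncut replicate 2, which was split almost evenly. In amputated replicate 3, 34 of the 42 rows were above their own group's mean, and 11 and 8 were in amputated replicates 1 and 2. In uncut replicate 1, 32 rows were above their group's mean, and 20 and 9 were in uncut replicates 2 and 3. The median deviation from the group's mean ran from −0.067 to 0.093 in amputated libraries and from −0.088 to 0.112 in uncut libraries, on the log2 scale. In every library but uncut replicate 2, at −0.008, this shift was larger in size than the median log2 fold change of 0.04 between the groups. Left out in turn, single libraries moved that median between −0.01 without uncut replicate 3 and 0.11 without uncut replicate 1. Measured from the mean of all 6 libraries, the median deviation per library ran from −0.095 to 0.132 for mitosis rows. Over all tested genes it ran from −0.014 to 0.011, and TMM scaling itself tends to hold that median near 0. Deviations from a group's mean cancel out within that group, so rows above it in 1 library lie below it in another. The share of all genes above their own group's mean was not computed, so a shift particular to mitosis genes was not tested.

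Summed over the 42 rows, mitosis transcripts stood at 954, 974 and 1078 CPM in amputated folds, against 1035, 952 and 905 CPM in uncut folds. The means were 1002 ± 66.4 and 964 ± 65.9 CPM in amputated and uncut folds (SD, n = 3 each), and the ranges overlapped. As a share of raw counts, without TMM, the sums came to 1023 to 1170 unscaled CPM in amputated folds and 830 to 923 unscaled CPM in uncut folds, without overlap.

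Genes of DNA replication, the step before mitosis, were set beside them as a list of 62 names. Of 60 tested, 58 were higher in amputated folds (96.7%) and 0 lower, with a median log2 fold change of 0.92. Over all genes, 20.8% were higher and 19.6% lower. The helicase genes mcm6, mcm4 and mcm5 were higher at 1.11, 1.18 and 1.12, and the polymerase subunit genes pola1 and pold1 at 1.16 and 1.00. The sliding clamp gene pcna had 233 ± 26.4 CPM in amputated folds and 116 ± 5.73 CPM in uncut folds (SD, n = 3 each). The summed level was 2239, 2358 and 2489 CPM in amputated folds, against 1263, 1248 and 1233 CPM in uncut folds.

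The mitosis sum over the replication sum was 0.426, 0.413 and 0.433 in amputated folds, against 0.820, 0.763 and 0.734 in uncut folds. Both sums come from the same library, so this ratio does not depend on the scaling. The 3 amputated ratios were all below the 3 uncut ones, and no p is given for a score over chosen genes. The difference between the lists in their fold changes was not tested.

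**Figure D3:**
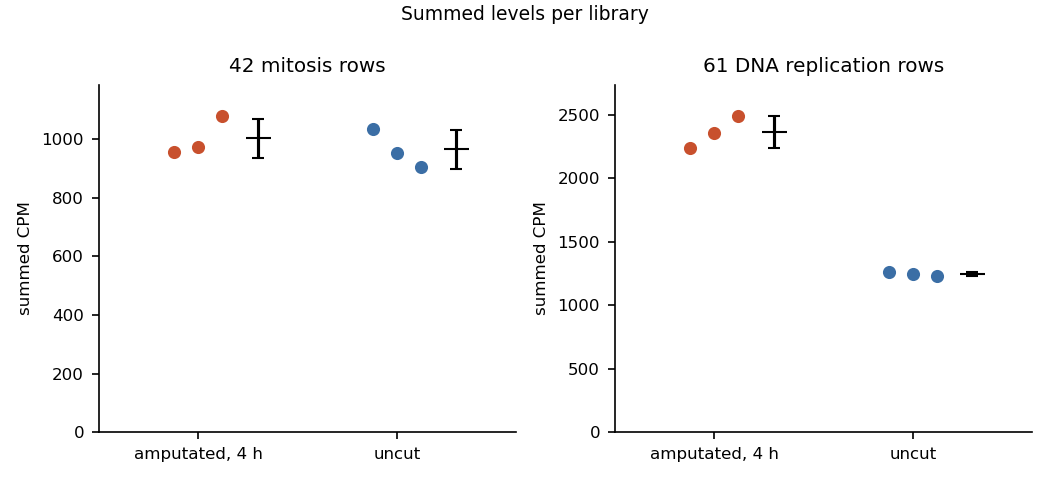
Summed CPM per library of the 42 mitosis rows (left) and the 61 replication rows (right), with points for libraries and bars for mean and SD (n = 3 per group). The mitosis sums of both groups overlap, at 954 to 1078 CPM in amputated and 905 to 1035 CPM in uncut folds. The replication sums do not, at 2239 to 2489 CPM in amputated and 1233 to 1263 CPM in uncut folds. With raw library totals the mitosis sums no longer overlap.

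Among the genes that act before S phase, G1 and G1/S regulators, 12 of 28 tested were higher (42.9%) and 1 was lower (3.57%), with a median of 0.32. Over all genes, 20.8% were higher and 19.6% lower. Higher were rb1, the retinoblastoma gene that restrains E2F factors, at 1.37, and cdk2, a kinase of S phase entry, at 0.98. So were the growth regulator mycn at 1.00, the E2F factor gene e2f3 at 0.45, the pocket protein gene rbl1 at 0.48 and skp2, which targets the Cdk inhibitor p27 for breakdown, at 0.94. The pocket protein gene rbl2, linked to resting cells, was lower at −0.61.

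Of the cell cycle brakes, 10 of 22 tested were lower (45.5%) and 3 higher (13.6%), against 19.6% lower and 20.8% higher over all genes. Their median log2 fold change of −0.15 was 0.10 with library totals. Lower were the p27-type Cdk inhibitor genes cdkn1ba at −0.59 and cdkn1bb at −0.65, the antiproliferative genes tob1a at −0.69 and tob1b at −0.59, the stress gene gadd45aa at −1.20 and cyclin G2 (ccng2) at −0.73. Among those higher were gadd45ga at 1.99 and gadd45bb at 0.80. The list's members therefore moved both ways under TMM.

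A wider list of other mitosis genes, 159 names outside the set, gave 43 higher and 8 lower of 130 tested, with a median of 0.23. The 43 higher genes are 33.1% of that list, where 20.8% of all genes were higher. The 8 lower genes are 6.15% of it, where 19.6% of all genes were lower. The largest of the named rises was rcc1, which charges the GTPase Ran for spindle assembly and nuclear transport, with 38.9 ± 2.83 CPM in amputated folds and 12.3 ± 0.607 CPM in uncut folds (SD, n = 3 each). The kinase gene wee1, which holds Cdk1 inactive before mitosis, was higher at 0.84, the kinesin gene kif15 at 0.74, and tmpob, of a nuclear lamina protein, at 0.74. Also higher were kntc1, of the spindle checkpoint, at 0.74 and cdca7b, a chromatin factor gene, at 0.99.

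On the other side of that list, fzr1b, a Cdh1-type activator of the anaphase-promoting complex in late mitosis and G1, was lower at −1.14. The cohesin gene stag2a was lower at −0.52, tmpoa at −0.34, cdca4 at −0.31, fam83d, a spindle gene, at −0.43 and the kinetochore gene ska2 at −0.35. With library totals, 2 genes of this list were lower and 83 higher, against 9.15% lower and 38.1% higher over all genes. Without amputated replicate 2, 4 were lower, against 2732 of 18145 over all genes. The transcription factor gene foxm1, whose product drives many G2 and mitosis genes in mammals, had few reads, at 1.64 ± 0.181 CPM in amputated folds and 1.67 ± 0.368 CPM in uncut folds (SD, n = 3 each, edgeR adjusted p = 0.963). Its partner in that program, mybl2b, was higher at 0.74 (edgeR adjusted p = 0.00410). These 2 genes were picked for naming after their values were seen.

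**Figure D4:**
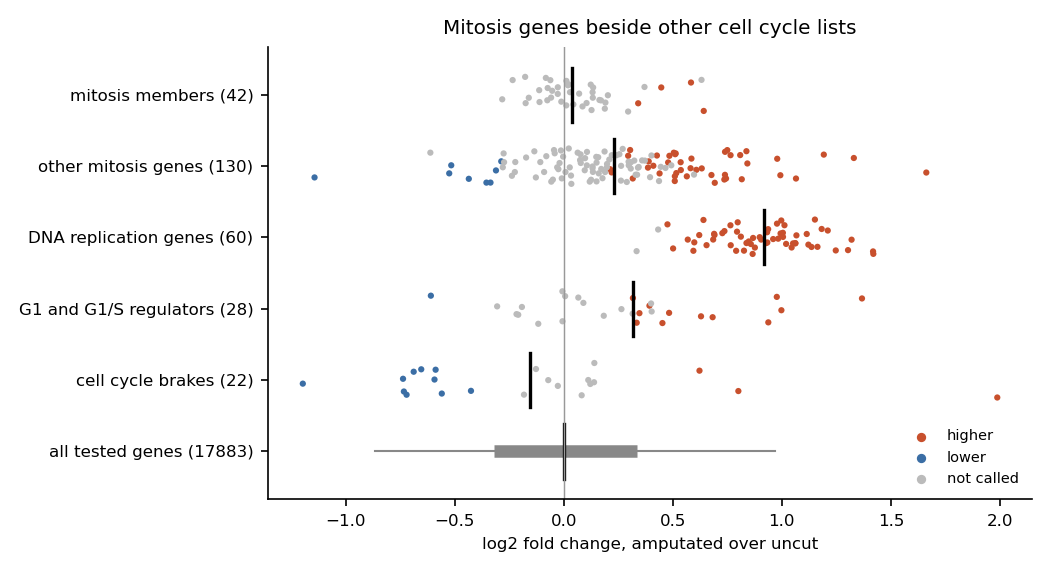
Log2 fold change, amputated over uncut, of each tested gene in the mitosis set and the other lists, with a vertical bar at each median, and for all 17883 tested genes a thick bar over percentiles 25 to 75 and a thin line over percentiles 5 to 95. The medians are 0.04 for the mitosis set, 0.23 for other mitosis genes, 0.92 for DNA replication, 0.32 for G1 and G1/S regulators and −0.15 for brakes. With library totals all medians rise by about 0.26 and that of the brakes becomes 0.10.

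Grouped by protein complex, an arrangement made after the values were seen and so given as description, 9 complexes are listed. Beside their counts, 20.8% of all tested genes were higher and 19.6% lower. With each library left out, these shares were 16.6% to 21.2% and 15.1% to 20.1%. Of the 8 condensin I and II genes, 6 were higher and 0 lower: smc2, ncaph and ncapd2 together with ncapg2, ncaph2 and ncapd3 of condensin II, at 0.32 to 0.58. This count was 4 without amputated replicate 3 or without uncut replicate 3. The Rod-Zwilch-Zw10 complex brings checkpoint proteins and dynein to kinetochores. Of its 3 genes, kntc1, zwilch and zw10 were all higher, at 0.74, 0.76 and 0.30. That count was 2 with DESeq2 and where a mean of at least 5 CPM was asked for. It was also 2 without amputated replicate 1, amputated replicate 3 or uncut replicate 2.

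Of 3 Mis12 complex genes tested, which link the Ndc80 complex to the centromere, dsn1 and nsl1 were higher at 0.82 and 1.19. The Ndc80 complex itself gave 1 higher of 4, spc24. Inner kinetochore genes gave 4 higher of 8, namely cenph, cenpo, cenpk and cenpn, at 0.75 to 1.33. All 4 have a mean under 5 CPM, so none was tested where a mean of at least 5 CPM was asked for. The anaphase-promoting complex gave 6 higher of 14, and augmin, which starts microtubule branches in the spindle, gave haus6 and haus3 of 6. Over all genes, 20.8% were higher, and with so few genes per complex a count near that share says little. Without uncut replicate 2 the augmin count was 1. The 13 mitotic kinesin genes gave 2 higher, kif15 and kif22, and a median of 0.02. Cohesin, the ring that holds sister chromatids together, with its loaders and releasers gave 4 higher (esco2, wapla, smc1al and nipblb) and 2 lower (stag2a and rad21b) of 17, with a median of 0.08. Its higher count was 1 without any 1 amputated library or without uncut replicate 3, and 2 without uncut replicate 1 or 2. With library totals 13 cohesin genes were higher and 1 lower, against 38.1% higher and 9.15% lower over all genes. Differences between complexes were not tested.

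**Figure D5:**
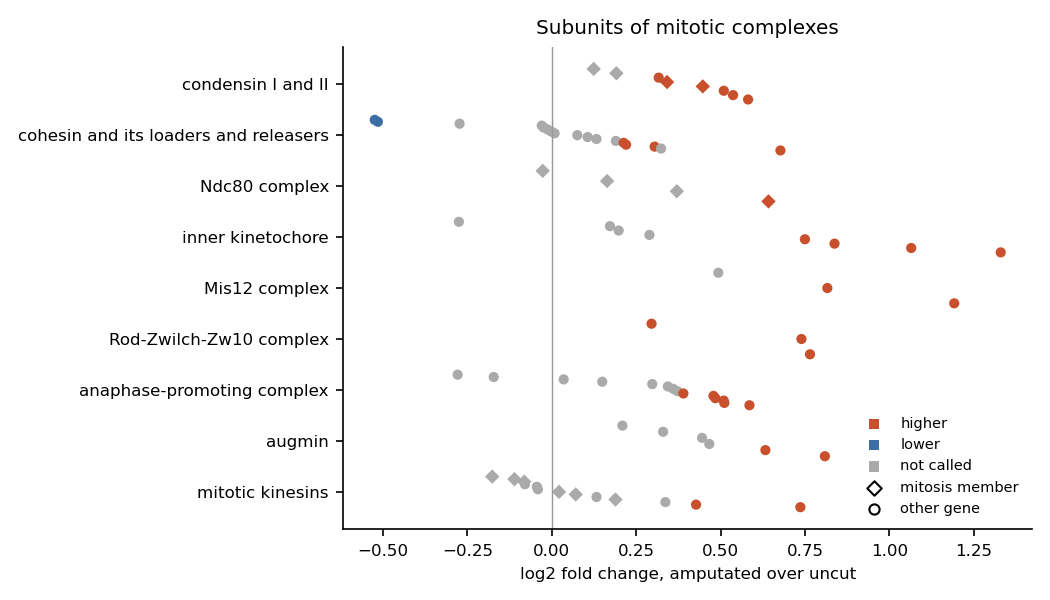
Log2 fold change, amputated over uncut, of each tested subunit gene by complex, with diamonds for genes of the mitosis set and circles for others, and colour for the call at an adjusted p under 0.05. Condensin points lie at 0.12 to 0.58 and kinesin points centre on 0.02. With library totals all points would sit about 0.26 further right.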

How the data were processed

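Libraries of 6 fin fold samples were made from Trizol-extracted total RNA with a TruSeq RNA kit that does not mark strand, per the labels' protocols. The submitters' processing notes name TopHat, Cufflinks and DESeq2 without version, role or order. The sources used here do not give the counter, the genome build or the annotation.

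The authors deposited whole-number counts per gene for 32266 genes. Beside them they deposited a normalized signal, which was the count over a size factor when checked on the values (largest relative deviation 5.5e-10). The authors' log2 fold change was uncut over amputated per the file headers and was turned round here. The deposited table also held the authors' p-value for each gene, whose adjusted form was NA for 12918 genes.

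Tests on these counts used edgeR 4.0.16 (R 4.3.3, limma 3.58.1) with filterByExpr (minimum count 10, minimum total 15), TMM scaling, glmQLFit and glmQLFTest with no covariate over all 6 libraries. Standard errors were derived by dividing the size of a log2 fold change by the root of its F statistic, and a 95% interval uses the matching quantile with no adjustment for many genes. One count was worth 0.0436 to 0.0972 CPM. Intervals cover the spread between libraries, and PCR copies could not be told apart. Every pair of replicates within a group exceeded sampling noise (chi-square over its degrees of freedom, 4.68 to 16.8). The pipeline was tested on simulated counts.

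Same-numbered libraries of both groups deviated together across genes (r = 0.214, 0.195 and 0.150, against −0.134 to −0.0388 for other pairs). Deviations from a group's mean cancel out within that group, so positive values for same-numbered pairs make the other pairs negative on balance. The main test has no covariate and leaves the shared deviation out, and the replicate number enters only in the alternative fit with a block. A pairing by number would rest on the data alone, as the labels state nothing but numbers.

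Alternatives were DESeq2's size factors, library totals alone, DESeq2 1.42.0, the authors' calls, no filter, a mean of at least 5 CPM, stricter thresholds, the block, and each library left out. The set without the DNTTIP1 row and with the clone-named row were added after seeing the data.

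Members and lists were chosen with earlier results of these data known. Of 278 names in the other lists, 30 had no row. Values per library are given for called members, the member with the highest mean in each role, ccnb1, top2a, mki67, cdk1, aurkb, plk1 and the 2 extremes in each direction, and of other lists up to 6 genes per direction by adjusted p. Other genes with values per library or level, and those of the complexes, were chosen after their values were seen. Not every list gene is named.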

Additional observations from a re-analysis of the deposited data

How the results depend on the processing

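The median log2 fold change of the mitosis set stayed between −0.01 and 0.11 under every alternative except library totals alone, where it was 0.29. With library totals, 6821 genes (38.1%) were higher and 1636 (9.15%) lower, and 20 mitosis rows were higher, the DNTTIP1 row among them. On that scale 83 other mitosis genes were higher and 2 lower, and 7 brakes were higher and 7 lower. Of the G1 and G1/S regulators, 0 were lower on that scale. At an adjusted p under 0.01, 2 mitosis genes were higher, against 2562 of all genes (14.3%), 7 G1 and G1/S regulators were higher, and 4 other mitosis genes and 2283 genes were lower. At a log2 fold change of at least 0.5, 2 mitosis genes, 6 G1 and G1/S regulators and 2479 genes (13.9%) were higher, and 3 other mitosis genes and 2177 genes were lower. Leaving out each library in turn gave 2 to 6 mitosis genes higher and 0 to 1 lower, against 3011 to 3869 genes higher (16.6% to 21.2%) and 2732 to 3667 lower (15.1% to 20.1%) over all, 4 to 9 other mitosis genes lower and 1 to 2 G1 and G1/S regulators lower. The replicate number as a block gave 5 mitosis genes higher, with 4125 genes higher and 4016 lower over all, and changed no other call on a mitosis gene. The genes bub3 and smc2 were called in every refit with another scaling, tool, filter, block or library left out, and smc2 did not reach the size of 0.5. The cause of these shifts between settings was not tested. Of the 17 members with values per library chosen by rule, no called value changed sign. At 10 to 74 counts per library, ccnb2 had the widest interval of the set. Low counts and wide intervals also went together for spc24, spc25, birc5a, nuf2, aurka and mad2l1. The part of depth in these widths was not tested.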
